A study of Mus musculus with 11 samples.

Results

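EphA receptors are receptor tyrosine kinases, and ephrin-A ligands are the membrane proteins, held by a lipid anchor, that bind them when 2 cells touch. Of the 47069 genes counted in each library of developing mouse retina, 10 were followed here by the Ensembl IDs of their symbols. These were 6 receptor genes (Epha3, Epha4, Epha5, Epha6, Epha7 and Epha8) and 4 ligand genes (Efna2, Efna3, Efna4 and Efna5). All 10 were present in the tables, and all 10 were among the 18188 genes with enough counts to be tested.

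The study compared a control group with a Brn3b-Kir2.1 group in 11 retina libraries of C57BL/6 mice at postnatal days 4 and 8 (P4 and P8). At P4 the controls had 2 libraries and the Kir2.1 group 3, and at P8 each group had 3. The Kir2.1 mice carry human Kir2.1, a potassium channel that holds the membrane near its resting potential, fused to eYFP behind a CAG promoter and a floxed STOP cassette. The cassette is removed by Brn3b-cre, whose activity in the retina marks ganglion cells, so other retinal cells are not meant to carry the channel. The labels disagree on 3 points: the controls are wild type in the genotype field and Brn3b-cre in the protocol, the later age is P8 in the age field and P11 in the protocol, and the source field names ganglion cells whereas the tissue field and the dissociation step describe the retina with no sort. The field values are used here, and Cre may or may not be present in the controls. The labels do not say how many animals went into a library, so p-values measure the spread between these libraries.

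In the retina, EphA receptors sit on the axons of ganglion cells in a gradient from the nasal to the temporal side, and ephrin-As are graded in the brain targets, where contact repels axons rich in receptor. This repulsion helps to place temporal and nasal axons along the map of the visual field. Ephrin-As are also made by retinal cells, where they bind receptors on the same membrane and can signal in reverse into the cell that carries them. A library of a whole retina averages over both sides of that axis, so the values below are total amounts and carry no position. They also cover every retinal cell type, so fewer cells of a type and less RNA per cell cannot be told apart.

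The libraries held from 9362215 to 12478838 counts in genes. For each read that the labels state, the tables hold 1.33 to 1.88 uniquely placed records, for a reason not given in the sources used here, so a count may not be 1 read. Between 22609 and 24591 genes were detected in 10 libraries and 31325 in Kir2.1 P8 replicate 2, which also had 69.4% of its uniquely placed records outside genes against 57.0% to 62.4% elsewhere. Wild-type P4 replicate 2 stood apart from the other P4 libraries: its 10 markers of dividing progenitors summed to 962 CPM against 2180 to 2710, and its 12 rod markers to 1187 CPM against 221 to 700. Its ganglion cell sum lay within theirs. The wild-type P8 libraries spread more than the others, with rod sums of 757, 3047 and 6825 CPM against 6270 to 6660 in Kir2.1 P8. CPM is a library's gene count scaled to a common depth, here with factors from the trimmed mean of M values (TMM). The transgene itself has no row among the genes used here. Its mouse counterpart Kcnj2 ranged from 3.74 to 17.2 CPM in wild-type and from 2.46 to 17.1 CPM in Kir2.1 libraries over both ages, which checks nothing about a human sequence.

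Between P4 and P8, in the mean over both genotypes, the amount of 4 of the 10 genes changed: Epha7 rose, and Epha5, Efna2 and Efna3 fell. Beside them, 22.8% of all genes tested changed, 10.7% higher and 12.1% lower. Within each genotype, Epha7 was the 1 member called, beside 4.39% of all genes in wild type and 16.7% in Kir2.1. Without wild-type P4 replicate 1, the calls of Epha5, Efna2 and Efna3 in the mean did not hold, at −0.38, −0.38 and −0.76. The count was 2 without Kir2.1 P4 replicate 1 or 3, wild-type P8 replicate 2 or 3, or Kir2.1 P8 replicate 2. The stretches just upstream of these 4 genes are shown because these are the members called with age. Each runs from 250 to 31 bases before the RefSeq start on GRCm38.p6, 5′ to 3′ on the strand of the gene, 220 bases long, with matches on either strand to TAATTA (a core bound by many homeodomain factors), TAATCC (a core bound by CRX and OTX proteins) and GGGCGG (the GC box of Sp factors) in capitals. RefSeq lists 2 starts for Epha7 and 2 for Efna3, and the start nearest the GENCODE 5′ end was taken. The stretches lie at chr5:84417413-84417632 on the minus strand for Epha5, chr4:28812881-28813100 on the plus strand for Epha7, chr10:80179232-80179451 on the plus strand for Efna2, and chr3:89322970-89323189 on the minus strand for Efna3.
Epha5: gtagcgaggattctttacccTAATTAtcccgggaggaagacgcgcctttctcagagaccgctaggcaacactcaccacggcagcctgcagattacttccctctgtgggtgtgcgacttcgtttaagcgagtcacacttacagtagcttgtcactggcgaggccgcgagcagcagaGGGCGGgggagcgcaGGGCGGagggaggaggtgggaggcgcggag
Epha7: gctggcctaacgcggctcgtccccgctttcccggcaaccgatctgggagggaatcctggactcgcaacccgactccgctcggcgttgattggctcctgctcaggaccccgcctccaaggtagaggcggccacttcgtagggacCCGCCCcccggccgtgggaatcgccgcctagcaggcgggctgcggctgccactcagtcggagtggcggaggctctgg
Efna2: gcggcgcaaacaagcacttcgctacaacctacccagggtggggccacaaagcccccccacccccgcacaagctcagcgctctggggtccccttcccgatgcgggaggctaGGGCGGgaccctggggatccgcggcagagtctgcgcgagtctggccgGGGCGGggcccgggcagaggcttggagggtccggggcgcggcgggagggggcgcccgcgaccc
Efna3: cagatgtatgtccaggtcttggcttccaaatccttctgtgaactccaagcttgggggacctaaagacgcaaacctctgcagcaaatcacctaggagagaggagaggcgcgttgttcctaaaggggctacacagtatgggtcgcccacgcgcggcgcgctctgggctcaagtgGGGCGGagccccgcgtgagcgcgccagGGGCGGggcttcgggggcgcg
The Epha5 stretch held 1 TAATTA, which 4.54% of 32851 mouse promoter windows of this length hold, and the other members had none. No member had TAATCC, which 5.64% of windows hold. GC boxes were present in 8 of the 10 members, with 2 in Epha5, 1 in Epha7, 2 in Efna2 and 2 in Efna3, against 28.5% of all windows. The members had from 5 to 40 CpG dinucleotides in the window, Efna4 the fewest and Epha8 the most, against a median of 5 over all windows. These letter matches describe the windows only.

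The largest amounts were those of a few receptors. To set genes side by side, CPM was divided by the length of all exons of the gene in GENCODE M21 (GRCm38), and the 4 group means were averaged. Epha8, a receptor that binds ephrin-A2, ephrin-A3 and ephrin-A5, had the highest level at 37.5 CPM per kb (27.1 to 53.4 over the libraries). It was above the second, Epha5, in all 11 libraries. Epha5, which is among the receptors graded across the mouse retina, followed at 13 CPM per kb (8.88 to 16.9). It was above Efna2, at 11.5 CPM per kb (6.24 to 16.5), in 10 of 11 libraries.

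Efna2 and Efna5, the ligands best known for mapping in the midbrain, could not be ordered: Efna2 was above Efna5, at 10.3 CPM per kb (7.01 to 14.8), in 7 of 11 libraries. Efna5 was above Epha7, at 9.91 CPM per kb (2.65 to 21.8), in 5 of 11, since Epha7 was below it at P4 and above it at P8. Epha4, a receptor that binds ephrin-As and some ephrin-Bs, had 7.16 CPM per kb (4.96 to 11.1). Lower were Epha3 at 4.39 (2.97 to 5.53), Efna3 at 3.9 (1.76 to 6.88) and Epha6 at 3.79 CPM per kb (1.28 to 6.57), whose ranges overlapped. Efna4 was the lowest at 1.74 CPM per kb (0.67 to 3.45), from 12 to 63 counts a library.

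The order depends in part on which exons are counted. With the length of the longest coding transcript, Epha5 came to 29.7 and Epha7 to 14.5 CPM per kb, Epha7 moved from 5th to 3rd place, and Epha6 passed Efna3; Epha8 stayed first on average and Efna4 last. With that length Epha8 was above Epha5 in 9 of 11 libraries.

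**Figure D1:**
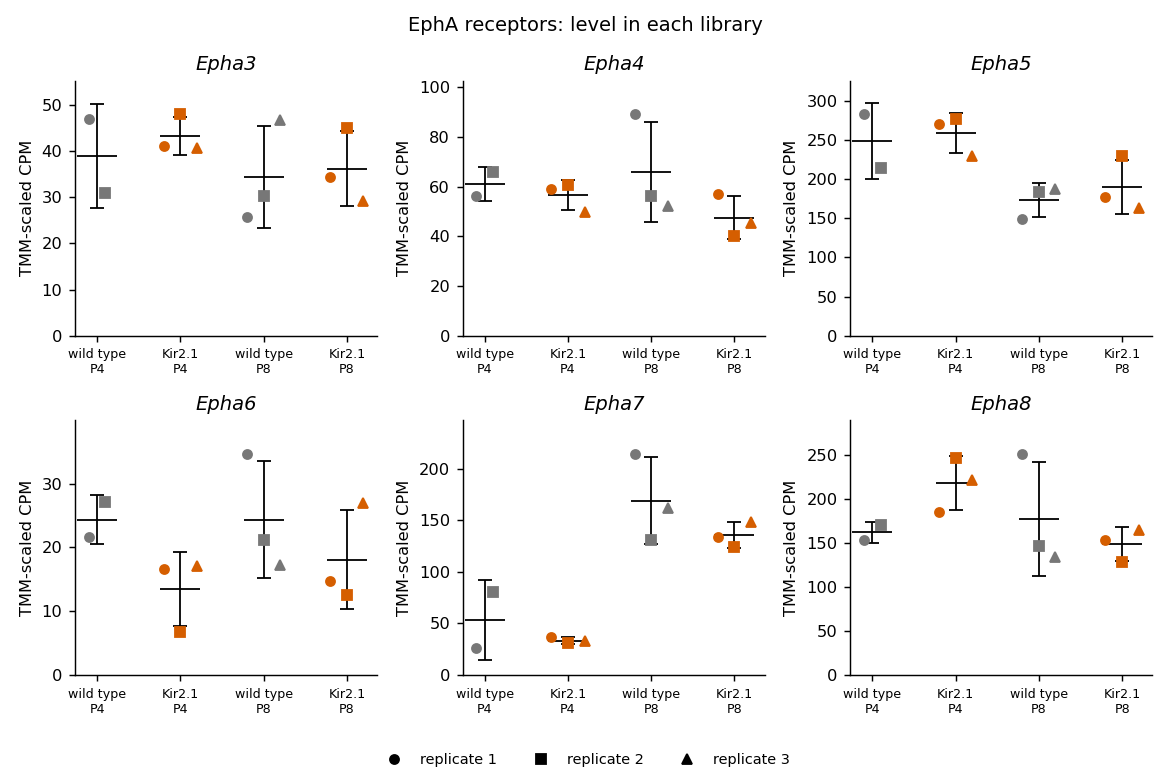
Level of each EphA receptor gene in the 11 libraries, in TMM-scaled CPM (y axis, from 0), by group (x axis). Points are libraries, the long bar is the group mean and the error bars are 1 SD (n = 2 for wild-type P4, otherwise 3). Epha7 is the panel in which every P8 library lies above every P4 library, from 124 to 215 against 26.2 to 80.9 CPM.

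Epha7 is a receptor whose gene also makes short forms without the kinase domain. It spans chr4:28813131-28967499 on the plus strand (GRCm38; ENSMUSG00000028289). Its CPM values at P4 were 26.2 and 80.9 in wild type and 36.8, 30.8 and 32.5 in Kir2.1. At P8 they were 215, 131 and 162 in wild type and 134, 124 and 149 in Kir2.1. Every P8 library was above every P4 library, and wild-type P4 replicate 2, at 80.9, was the highest of its age.

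Averaged over the genotypes, Epha7 was 3.58-fold higher at P8 (log2 fold change 1.84 ± 0.24 SE, 95% interval 1.31 to 2.37, edgeR adjusted p = 0.000259). It was among the 4 of 10 members called, beside 22.8% of all genes called in this comparison, 10.7% higher and 12.1% lower. Of all tested genes, 446 (2.45%) had a higher fold change. Groups of the 2 ages did not overlap for 11.6% of all tested genes, and among the members this held for Epha7.

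In wild type alone the rise was 3.16-fold (1.66 ± 0.36 SE, adjusted p = 0.0216 by edgeR), with 1 of 10 members and 4.39% of all genes called. In Kir2.1 alone it was 4.06-fold (2.02 ± 0.32 SE, adjusted p = 0.00149 by edgeR), again with 1 of 10 members called, beside 16.7% of all genes. The wild-type call rests on wild-type P4 replicate 1: without it the log2 fold change was 1.06 (adjusted p = 0.102), and without replicate 2, it was 2.70 (adjusted p = 0.000142). The call was also lost when the wild-type libraries were fitted alone (1.65, adjusted p = 0.203 by edgeR). With the replicate number as a block it was lost too (1.69, adjusted p = 0.0649 by edgeR). In Kir2.1 the value stayed between 1.95 and 2.08 whichever library was left out.

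Epha7 therefore took a larger share of the summed level of the 6 listed receptors at P8, a sum without Epha1, Epha2 and Epha10. Of the summed level per kb of the 6 receptors, it made up 7.45% in wild-type P4 (3.85% and 11.1% in the 2 libraries) and 4.27% in Kir2.1 P4 (3.61% to 5%). At P8 it made up 20.9% in wild type (18.9% to 23.0%) and 19.5% in Kir2.1 (19.0% to 20.4%). Epha8 held the largest share in all 4 groups, with means from 45.0% to 57.9%. The share of Epha5 was 20.9% and 19.4% at P4 and 13.3% and 16.3% at P8, for wild type and Kir2.1. With the longest coding transcript as length, Epha7 had 7.97% and 4.67% at P4 and 22.8% and 20.9% at P8, and Epha5 34.3% and 33.1% at P4 and 22.5% and 27.0% at P8. By that length Epha8 had 32.9% to 43.4%, still the largest mean in each group, though at 34.8% against 34.3% for Epha5 in wild-type P4. These shares are descriptions, and no test was made on them.

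Marker genes of several retinal cells moved between the same groups. All 12 rod markers rose from P4 to P8 (median log2 fold change 2.96), as did 9 of 10 bipolar markers (2.32). All 10 markers of dividing progenitors fell (−3.26), and 14 of 15 ganglion cell markers fell and 1 rose (−1.93). None of these markers was at 0 throughout a group. Summed rod markers ran from 221 to 1187 CPM at P4 and 757 to 6825 CPM at P8, and ganglion cell markers from 468 to 2025 CPM at P4 and 277 to 518 CPM at P8. Wild-type P8 replicate 1 had the highest Epha7, 215 CPM, and the lowest rod sum of its age, 757 CPM. The part of these cell types in the change of Epha7 was not tested.

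**Figure D2:**
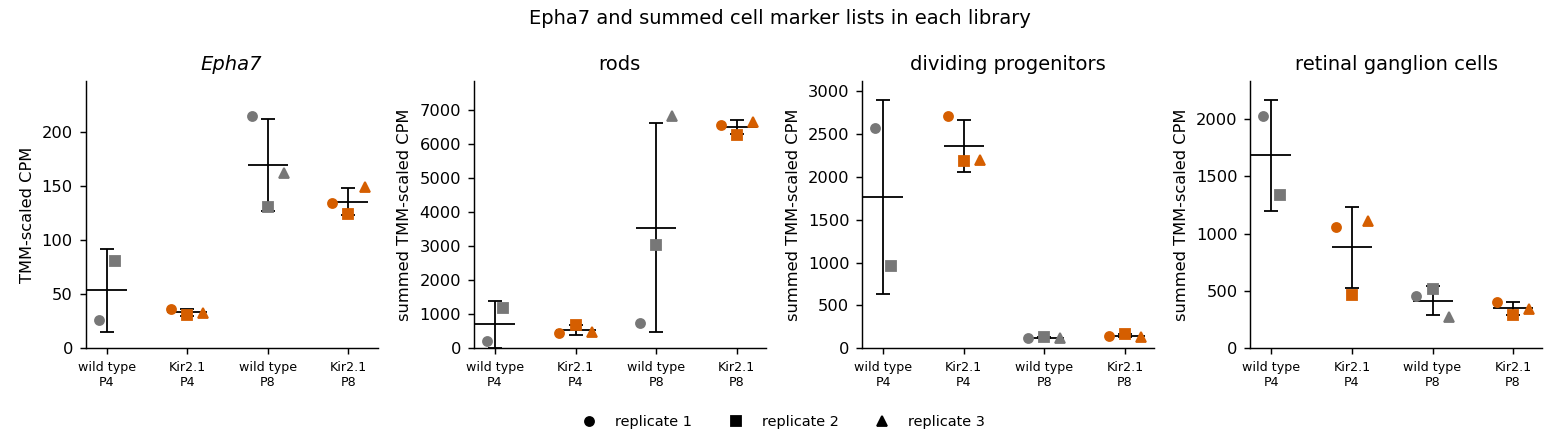
Epha7 and the summed TMM-scaled CPM of 3 marker lists (12 rod, 10 dividing progenitor and 15 ganglion cell genes) in each library, by group; each y axis starts at 0, long bars are means and error bars 1 SD. Wild-type P4 replicate 2 is the P4 library with the highest Epha7 (80.9 CPM), the highest rod sum (1187) and the lowest progenitor sum (962), and wild-type P8 replicate 1 has the highest Epha7 (215 CPM) with a rod sum of 757.

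Epha5 changed the other way. It spans chr5:84054761-84417382 on the minus strand (ENSMUSG00000029245). Its CPM at P4 was 283 and 214 in wild type and 271, 277 and 229 in Kir2.1, and at P8 it was 149, 184 and 188 in wild type and 177, 229 and 163 in Kir2.1. The ages met at 1 point, where Kir2.1 P8 replicate 2, at 229 CPM, lay within the P4 range. The mean over genotypes fell to 0.715 of its P4 level (log2 fold change −0.48 ± 0.12 SE, 95% interval −0.74 to −0.23, edgeR adjusted p = 0.0111). The fold change was −0.52 in wild type (adjusted p = 0.121) and −0.45 in Kir2.1 (adjusted p = 0.0739), which did not pass the threshold. Without wild-type P4 replicate 1 the mean change was −0.38 (adjusted p = 0.0777).

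The other 4 receptors showed no called change with age in the reported fit, and their intervals give the size that this fit allows. Epha3, at chr16:63543534-63864175, is a receptor with high affinity for ephrin-A5. It ran from 30.9 to 48 CPM at P4 and 25.8 to 46.8 CPM at P8 (log2 fold change −0.22, 95% interval −0.61 to 0.17, edgeR adjusted p = 0.421). Over the alternative fits the Epha3 value ran from −0.50 to −0.06. Epha4, at chr1:77367185-77515088, ran from 49.9 to 65.7 CPM at P4 and 40 to 89.1 CPM at P8 (−0.07, −0.40 to 0.26). Epha6, at chr16:59653483-60605531, is a close relative of Epha5 and is likewise found in ganglion cells. It ran from 6.75 to 27.1 CPM at P4 and 12.5 to 34.7 CPM at P8 (0.21, −0.41 to 0.83). Epha8, at chr4:136929419-136956816, ran from 154 to 247 CPM at P4 and 128 to 252 CPM at P8 (−0.21, −0.55 to 0.13).

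The mean for Epha8 covers 0.13 in wild type and −0.55 in Kir2.1 (95% interval −1.01 to −0.09, adjusted p = 0.0979 by edgeR). In Kir2.1 it was 186, 247 and 222 CPM at P4 and 154, 128 and 165 CPM at P8. The Kir2.1 change was called with no filter on low counts (adjusted p = 0.00183) and with only the Kir2.1 libraries fitted (adjusted p = 0.00775). Without wild-type P8 replicate 1 the mean change of Epha8 was −0.40 and was called (adjusted p = 0.0162).

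**Figure D3:**
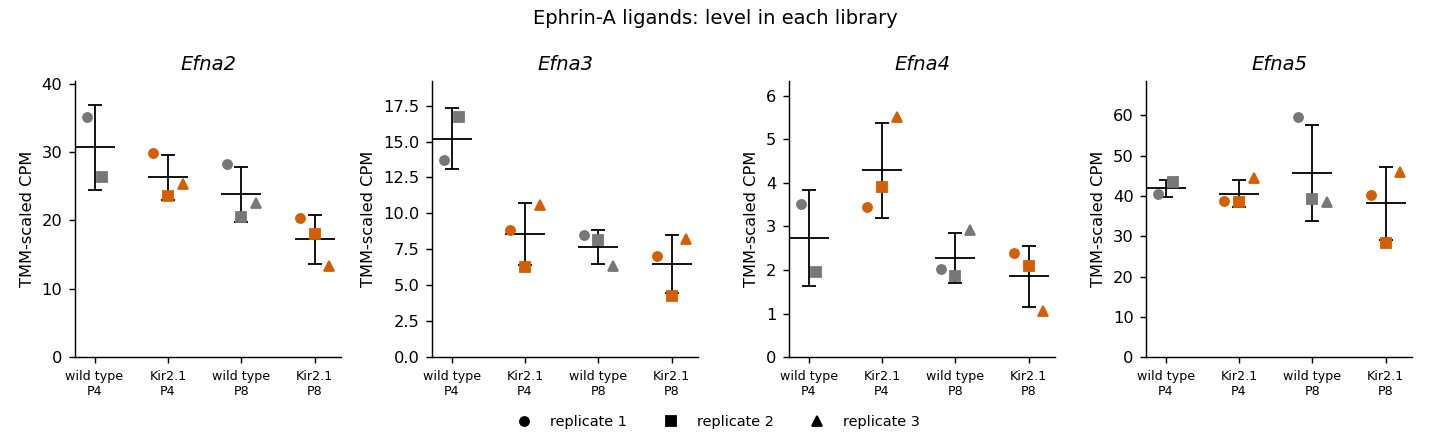
Level of each ephrin-A ligand gene in the 11 libraries, in TMM-scaled CPM (y axis, from 0), by group (x axis); long bars are group means and error bars 1 SD (n = 2 for wild-type P4, otherwise 3). Efna3 is highest in the 2 wild-type P4 libraries (13.7 and 16.7 CPM), and Efna5 stays between 28.3 and 59.6 CPM.

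Of the ligands, Efna2 and Efna3 fell with age and Efna5 did not pass the test. Efna2, at chr10:80179482-80190010, encodes ephrin-A2. Its CPM at P4 was 35.1 and 26.3 in wild type and 29.9, 23.6 and 25.3 in Kir2.1. At P8 it was 28.3, 20.5 and 22.6 in wild type and 20.4, 18 and 13.3 in Kir2.1. The lowest values were the 3 Kir2.1 P8 libraries, and wild-type P8 replicate 1, at 28.3, was within the P4 range. The mean over genotypes fell to 0.713 of its P4 level (−0.49 ± 0.15 SE, edgeR adjusted p = 0.0336). The change was −0.37 in wild type (adjusted p = 0.408) and −0.61 in Kir2.1 (adjusted p = 0.0586), and neither passed. This call is close to the threshold: leaving out a library took it away for 7 of the 11 libraries, with adjusted p up to 0.191 (without wild-type P4 replicate 1).

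Efna3, at chr3:89313899-89322965, encodes ephrin-A3, which in the adult brain is known from astrocytes. Its CPM at P4 was 13.7 and 16.7 in wild type and 8.84, 6.29 and 10.6 in Kir2.1. At P8 it was 8.52, 8.17 and 6.35 in wild type and 7.04, 4.28 and 8.21 in Kir2.1. The 2 wild-type P4 libraries were the highest, and the other 9 libraries overlapped. The mean over genotypes fell to 0.621 of its P4 level (−0.69 ± 0.21 SE, edgeR adjusted p = 0.0332). The change was −0.99 in wild type (adjusted p = 0.0964) and −0.39 in Kir2.1 (adjusted p = 0.406), and neither passed the threshold. This call was lost without any 1 of 8 of the 11 libraries, with adjusted p up to 0.108 (without wild-type P4 replicate 2).

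Efna4, at chr3:89333390-89338028, ran from 1.95 to 5.51 CPM at P4 and 1.07 to 2.93 CPM at P8. Its change of −0.73 ± 0.31 SE did not pass the threshold (edgeR adjusted p = 0.113), and at these counts the 95% interval ran from −1.41 to −0.06. Efna5, at chr17:62604184-62881317, encodes ephrin-A5. It ran from 38.5 to 44.5 CPM at P4 and 28.3 to 59.6 CPM at P8, with a log2 fold change of 0.02 (95% interval −0.31 to 0.35). Efna3 and Efna4 share 344 and 168 exon bases with antisense genes, Gm15998 and 4731419I09Rik, which had 17 and 105 counts in all, and Epha6 shares 107 bases with Gm9017, which had 4. The strand setting of the counting is not given in the sources used here, so reads of these pairs may not be separable.

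**Figure D4:**
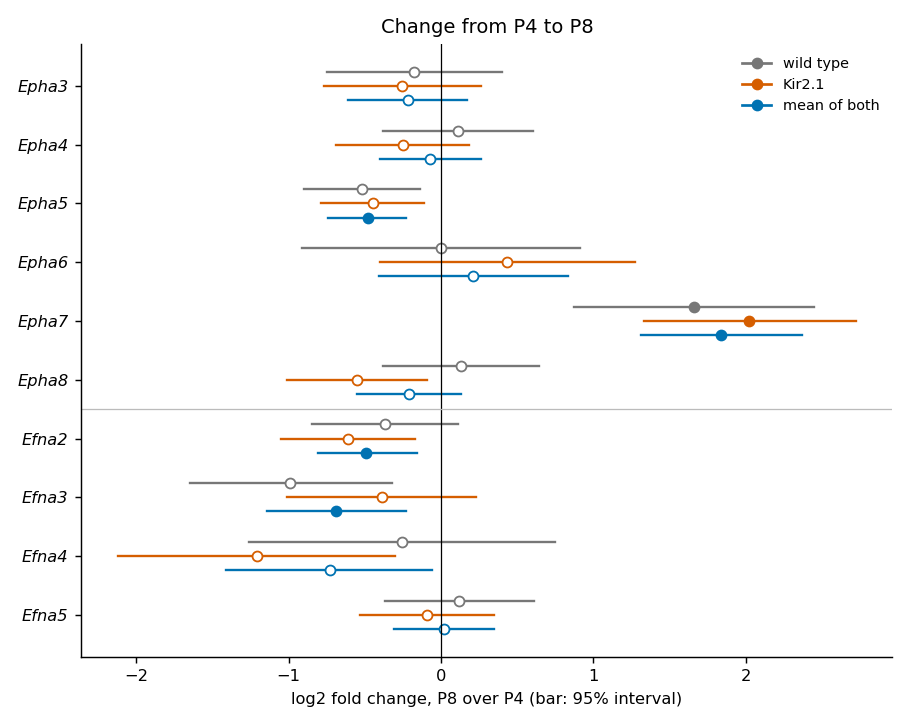
Log2 fold change from P4 to P8 (x axis; 0 is no change) for each gene (y axis; receptors above the line, ligands below), in wild type, in Kir2.1 and as the mean of both, with 95% intervals; filled points passed an adjusted p of 0.05 by edgeR. Epha7 is filled in all 3, at 1.66, 2.02 and 1.84, and Epha5, Efna2 and Efna3 are filled only in the mean.

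As a set, the members' median change with age was −0.21, with receptors at −0.14 and ligands at −0.59, beside 0.02 for all genes tested. Of the 10 members, 7 had a negative value, beside 48.0% of all genes.

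The comparison of Kir2.1 with wild type asks whether holding ganglion cells near rest changes the retina's gene expression. No member passed the adjusted threshold at P4, at P8 or for the difference between the ages. The same was true of all genes: 0% of the 18188 were called by edgeR in each of the 3. At an unadjusted p under 0.05, 7.22% of genes passed at P4, 6.82% at P8 and 3.09% for the difference. The members' counts at that level were 1 of 10 at P4 (Efna3), 2 of 10 at P8 (Epha4 and Efna2) and 0 for the difference. DESeq2 called 21 genes at P4 and 1 at P8, and no member.

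At P4 the values furthest from 0 relative to their error were those of Efna3, Epha6, Epha7 and Epha8. Efna4 had a value of 0.65 with a larger error (± 0.46 SE, adjusted p = 0.766 by edgeR). Leaving out either wild-type library moved it, to 1.13 (replicate 1 out) or 0.29 (replicate 2 out). Epha6 was 21.6 and 27.1 CPM in wild type and 16.6, 6.75 and 17 CPM in Kir2.1 (log2 fold change −0.86 ± 0.42 SE, adjusted p = 0.695 by edgeR). Without Kir2.1 P4 replicate 2, the library at 6.75 CPM, it was −0.53. Efna3, with the values given above, was −0.83 ± 0.31 (unadjusted p = 0.0188 and adjusted p = 0.677 by edgeR). Epha8 was 154 and 171 CPM in wild type and 186, 247 and 222 CPM in Kir2.1 (0.43 ± 0.24, adjusted p = 0.716 by edgeR). The 2 groups did not overlap for these 3 genes, nor for 26.7% of all genes tested in this comparison of 2 libraries with 3.

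Epha7 at P4 was −0.68 ± 0.34 SE (adjusted p = 0.704 by edgeR), and its direction rests on 1 library. The Kir2.1 values of 30.8 to 36.8 CPM lie between the 2 wild-type values of 26.2 and 80.9 CPM. Without wild-type P4 replicate 2 the value turned to 0.35, and without replicate 1 it was −1.28. With no filter on low counts, the same contrast was called (−0.69, adjusted p = 0.00778). The 2 wild-type libraries differed from each other by more than the group means did.

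Most markers of several cell types had negative log2 fold changes in the same comparison, and no marker passed the adjusted threshold. The 15 ganglion cell markers summed to 1339 and 2025 CPM in wild-type P4 and 468 to 1109 CPM in Kir2.1 P4. All 15 had a negative log2 fold change (median −0.87), as did 8 of 10 bipolar markers (−1.44), 4 of 4 horizontal cell markers (−0.76), 9 of 10 vascular markers (−0.52) and 9 of 12 rod markers (−0.48). For rods the 3 Kir2.1 sums, 444 to 700 CPM, lay between the wild-type sums of 221 and 1187 CPM, so the rod groups overlapped. Bipolar sums also overlapped, at 445 and 730 CPM in wild type and 445 to 568 CPM in Kir2.1. So did horizontal cell sums (124 and 147 against 78.5 to 129 CPM) and vascular sums (456 and 579 against 450 to 753 CPM). All 10 markers of dividing progenitors (0.33) and all 8 of microglia (0.27) were positive. Pou4f2, the gene that drives Cre and itself a ganglion cell marker, was 13.4 and 20.4 CPM in wild type and 4.68 to 13.4 CPM in Kir2.1 (−0.87 ± 0.40 SE, adjusted p = 0.688 by edgeR). The part of these cell types in the members' values was not tested.

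At P8 the members' values in Kir2.1 were mostly below those in wild type, 8 of 10 with a negative value beside 49.4% of all genes, at a median of −0.28 beside 0.00. The size of this median rests largely on wild-type P8 replicate 1: without it the median was −0.10, with 8 of 10 still negative. Kir2.1 P8 replicate 2 also stood apart, with sums of 27.4 CPM for 8 pigment epithelium markers and 19.3 CPM for 5 erythrocyte markers, at most 6.38 and 6.63 CPM in the remaining P8 libraries. Without it the median was −0.19 with 10 of 10 negative, and Epha6 was −0.22, Efna3 −0.01 and Efna5 −0.08, where the values over all libraries were −0.43, −0.23 and −0.26. Other libraries moved the values the opposite way: without Kir2.1 P8 replicate 3, Epha6 was −0.83, Efna3 −0.43 and Efna5 −0.41, and without wild-type P8 replicate 3, Epha8 was −0.42 (−0.25 over all libraries). With any 1 library left out the median ran from −0.39 to −0.10. Wild-type P8 replicate 1 stood apart in its amacrine marker sum of 3532 CPM (the remaining P8 libraries ran from 1143 to 2647 CPM) and in its rod sum of 757 CPM. Between the genotypes at P8, all 10 amacrine markers (median −0.51) and 13 of 15 ganglion cell markers (−0.19) were negative. All 12 rod markers (0.90), 8 of 10 vascular markers (0.43) and 9 of 10 bipolar markers (0.21) were positive, with none past the adjusted threshold, and their part in the members' values was not tested. Epha4 was 89.1, 56.2 and 52.3 CPM in wild type and 57, 40 and 45.3 CPM in Kir2.1 (−0.47 ± 0.20 SE, adjusted p = 0.699 by edgeR). The groups overlapped, and without wild-type P8 replicate 1 the value was −0.20. The same step gave −0.08 for Epha6, −0.11 for Epha7, 0.08 for Epha8 and −0.02 for Efna5. Efna2 was −0.47 ± 0.20 (adjusted p = 0.699 by edgeR). It was the member whose P8 groups did not overlap, as was so for 10.6% of all genes. Epha7 was −0.32, with a 95% interval from −0.98 to 0.34, and Epha5 was 0.13, from −0.22 to 0.47.

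The effect of Kir2.1 was not shown to differ between the ages for any member (adjusted p = 1 for each by edgeR). The largest difference in size relative to its error was that of Epha8, −0.68 ± 0.32 SE, from 0.43 at P4 to −0.25 at P8. Without wild-type P8 replicate 1 it was −0.35. For Epha7 the difference was 0.36 ± 0.46, with an interval from −0.64 to 1.36.

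**Figure D5:**
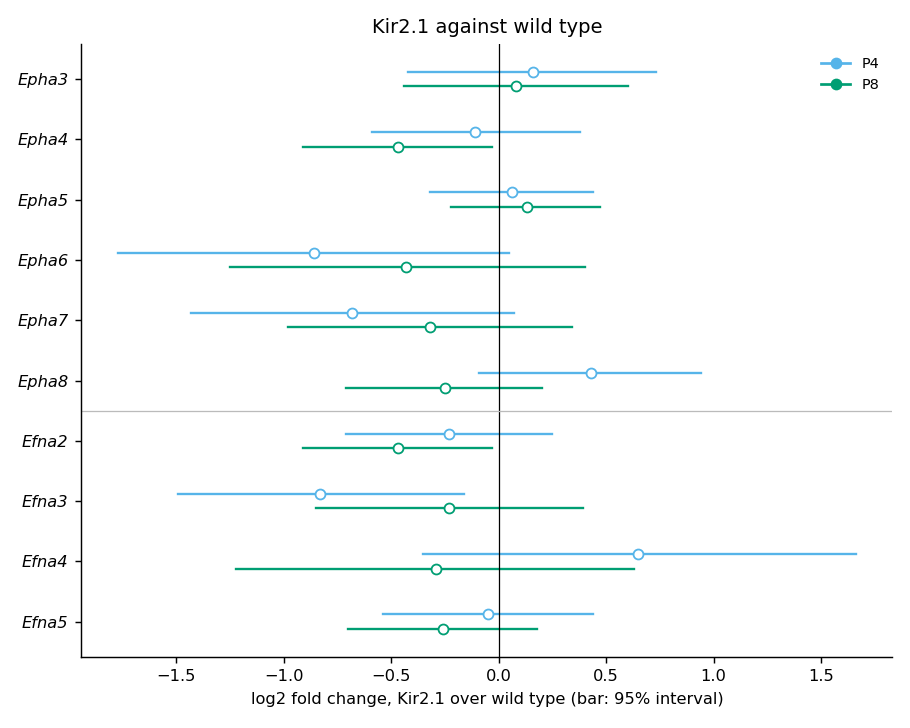
Difference between Kir2.1 and wild type as a log2 fold change (x axis; above 0 is higher in Kir2.1) for each gene (y axis; receptors above the line, ligands below) at P4 and P8, with 95% intervals. All points are open since no gene passed an adjusted p of 0.05 by edgeR, and the widest intervals are those of Efna4, from −0.35 to 1.66 at P4.

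The authors' deposited table of their own Kir2.1 comparison differs from these values for some members at P4. In the authors' deposited table, Epha7 at P4 has a log2 fold change of −0.92 and an adjusted p of 0.021, and Epha6 has −1.23 with 0.0515. The authors' deposited table gives Epha8 −0.19 at P4, opposite in sign to the 0.43 from the counts. Efna2 and Efna5 also differ in sign, at 0.16 and 0.09 in the authors' deposited table against −0.23 and −0.05 from the counts. Over 18171 genes at P4, 72.9% had the same sign in the authors' deposited table as here (Pearson's r = 0.618 across genes, which are not independent replicates), and 86.6% at P8 (0.805). The direction of the authors' deposited table is not stated in its header and was read as Kir2.1 over wild type. In the authors' deposited table for P8, Epha4 has −0.54 (adjusted p = 0.169) and Epha8 −0.45 (adjusted p = 0.218), and no member has an adjusted p under 0.05. Of the 9 members with an adjusted p in the authors' deposited tables, 1 was called at P4, beside 2.27% of genes, and 0 at P8, beside 7.27%. Which libraries entered the authors' deposited tables is not given in the sources used here.

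Other genes of the pathway were taken from 3 lists. Of the 4 other class A genes, Epha2 and Epha10 fell with age in the mean over genotypes (2 of 3 tested, beside 12.1% of all genes), Efna1 did not pass and Epha1 was too low to test (0 to 0.939 CPM). Epha2, a receptor of dividing and epithelial cells, fell from 22.4 to 8.49 CPM in the mean over libraries (−1.33 ± 0.28 SE, edgeR adjusted p = 0.00487). Epha10, a receptor with no active kinase, fell from 50.7 to 36.4 CPM (−0.46 ± 0.14 SE, edgeR adjusted p = 0.034). In wild type alone neither passed, with Epha2 at −0.93 (adjusted p = 0.238) and Epha10 at −0.18 (adjusted p = 0.712). In Kir2.1 both passed, at −1.74 (adjusted p = 0.00912) and −0.75 (adjusted p = 0.0192), and the difference between the genotypes did not (adjusted p = 1 for each).

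Of 27 signalling partners, 1 rose and 9 fell with age, beside 10.7% of all genes that rose and 12.1% that fell, at a median of −0.18 beside 0.02. Chn1, which encodes alpha-chimaerin, a Rac inhibitor that acts below EphA4, rose from 89 to 135 CPM (0.58 ± 0.07 SE, edgeR adjusted p = 0.0002). Sipa1l1, which encodes SPAR, a Rap regulator bound by EphA receptors, fell from 145 to 70.9 CPM (−0.98 ± 0.10 SE, edgeR adjusted p = 3.2e-05). Ngfr, which encodes p75NTR, a partner of ephrin-As in reverse signalling, fell from 88.6 to 26.6 CPM (−1.68 ± 0.18 SE, edgeR adjusted p = 4.96e-05).

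Of 12 genes that pattern the retinal axes, 11 were tested, 6 fell and none rose, beside the same 12.1% and 10.7%, at a median of −0.79. Cyp26a1, an enzyme that breaks down retinoic acid in a central stripe of the retina, fell from 17.9 to 3.24 CPM (−2.45 ± 0.29 SE, edgeR adjusted p = 0.000113). Tbx3, a factor of the dorsal retina, fell from 110 to 66.9 CPM (−0.71 ± 0.13 SE, edgeR adjusted p = 0.00238). Foxd1, a factor of the temporal retina that acts upstream of EphA expression, fell from 4.43 to 0.862 CPM (−2.32 ± 0.44 SE, edgeR adjusted p = 0.00263). No gene of the 3 lists was called between the genotypes.

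For 3 members, the genes with the most similar pattern over the 11 libraries were found among genes of similar level, from 0.5 to 2 times the member's mean CPM. Likeness was the root mean square difference of mean-centred log2 CPM, so 0 is an identical pattern. For Epha5 these were Slc38a2 (0.0863), Rif1 (0.106) and Dach1 (0.129), with a median of 0.38 over 1841 candidate genes. For Epha6 they were Slc9a3r2 (0.185), Thsd7b (0.192) and Car11 (0.278), with a median of 0.669 over 4995. For Efna5 they were Mknk2 (0.0805), Pam (0.113) and Hip1r (0.117), with a median of 0.324 over 5134. Epha6 lies farther from its nearest genes than the other 2 do, and its candidate median was also larger, 0.669 against 0.38 and 0.324.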

How the data were processed

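Total RNA from retinas was sequenced on an Illumina HiSeq, per the labels' protocols. The authors deposited 1 table of whole-number counts per Ensembl gene for each library. The submitters' processing notes list cutadapt 1.18, STAR 2.5.0c, SAMtools 1.9, bedtools 2.26.0, HTSeq 0.6.1, DESeq2 and the build mm10, without role or order. Records that name no gene, 74.6% to 79.8% of a table, were left out. The authors' deposited tables hold a mean normalized signal, a log2 fold change with its error, a statistic (a score) and a p-value with its adjusted p-value for each gene, per the file headers.

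Counts were fitted with edgeR 4.0.16 in R 4.3.3: filterByExpr by group, TMM factors from 0.964 to 1.05, 4 group means over 11 libraries, and a quasi-likelihood test. Adjusted p-values are Benjamini-Hochberg over 18188 genes, with a threshold of 0.05. Intervals are 95%, from the standard error and 7 residual plus 5.05 prior degrees of freedom. Gene lengths and coordinates came from GENCODE M21 and upstream sequence from RefSeq, both on GRCm38, the assembly that mm10 names. DESeq2 1.42.0 was an alternative, and the fit was tested on simulated counts. None of the 10 pairs of libraries within a group agreed within counting noise. Replicate numbers were not shown to pair the libraries. All 10 members were named whatever their values. The 3 genes nearest to Epha5, Epha6 and Efna5 and at most 3 called genes per pathway list were also named. Members and lists were chosen with earlier results of these data known. The length of the longest coding transcript, and the members' median with each library left out, were alternatives chosen after seeing the data.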

Additional observations from a re-analysis of the deposited data

How the results depend on the processing

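Over 830 combinations of member, comparison and alternative, 745 kept their direction and side of the threshold, 20 lost a call, 17 gained one and 48 turned sign. None of the 48 had been called. The count of members called moved as follows. With no filter on low counts it was 1 for Kir2.1 at P4 (0 in the reported fit), 2 for age in wild type and 4 for age in Kir2.1 (1 in each in the reported fit). By DESeq2 the age counts were 2 for wild type and 4 for Kir2.1. With only the groups compared in the fit it was 0 and 4. With the replicate number as a block the wild-type count was 0 and the Kir2.1 count 2, and Epha7 in wild type was 1.69 (adjusted p = 0.0649 by edgeR). The numbers are not shown to pair libraries, since 3 of 15 same-number pairs and 3 of 30 other pairs had residual correlations over 0.1, from −0.0757 to 0.139 and from −0.147 to 0.143. Without wild-type P4 replicate 2 and wild-type P8 replicate 3 together it was 2 for age in wild type. Leaving out 1 library at a time gave 0 to 1 members for age in wild type, 1 to 2 in Kir2.1 and 1 to 5 for the mean of both, lowest without wild-type P4 replicate 1.

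Genes called over all tested also moved. For Kir2.1 at P4 there were 0, and 339 with no filter, 21 with DESeq2 and 6 without wild-type P4 replicate 1. At P8 there were 0, and 447 with no filter, 1 with DESeq2, 219 without wild-type P8 replicate 3 and 534 without the pair of libraries. For the difference there were 0, and 136 with no filter and 1 without wild-type P4 replicate 1. For age in wild type there were 798, and 2058 with no filter, 1444 with DESeq2, 113 with only those groups, 1711 without the pair, and 163 to 1339 with 1 library left out. For age in Kir2.1 there were 3029, and 3661 with no filter, 3583 with DESeq2, 4264 with only those groups and 2928 with the replicate block. With 1 library left out there were 1764 to 2169. The number of genes tested differed between some of these fits. For the mean there were 4140, and 2133 without wild-type P4 replicate 1. The cause was not tested.

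Without the pair of libraries, Kir2.1 at P4 gave −0.12 for Epha3, 0.01 for Epha4, −0.13 for Epha5, 0.35 for Epha7 and 0.00 for Efna5. The difference of effects then gave 0.48 for Epha3 and −0.70 for Epha7, age in wild type 0.36 for Epha6, and mean age 0.06 for Epha4. Epha6 with age in wild type was 0.00 with DESeq2 size factors and 0.01 with DESeq2, and Efna5 with mean age was −0.02 with the replicate block.

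With 1 library left out, Kir2.1 at P4 ranged from −0.11 to 0.48 for Epha3, −0.22 to 0.01 for Epha4, −0.13 to 0.27 for Epha5, −1.28 to 0.35 for Epha7 and −0.12 to 0.01 for Efna5. At P8 it ranged from −0.11 to 0.37 for Epha3, −0.03 to 0.23 for Epha5 and −0.42 to 0.08 for Epha8. The difference of effects ranged from −0.41 to 0.21 for Epha3, −0.15 to 0.25 for Epha5, −0.68 to 0.96 for Epha7 and −0.37 to 0.02 for Efna5. Age in wild type ranged from −0.47 to 0.15 for Epha3, −0.18 to 0.25 for Epha4, −0.36 to 0.20 for Epha6, −0.22 to 0.30 for Epha8, −0.62 to 0.22 for Efna4 and −0.13 to 0.24 for Efna5. Age in Kir2.1 ranged from −0.24 to 0.09 for Efna5. Mean age ranged from −0.23 to 0.00 for Epha4 and −0.12 to 0.11 for Efna5. When this left wild-type P4 with 1 library, that library was assumed to vary like the other groups. Efna4 had the fewest counts of the members, 12 to 63 a library, and the widest errors.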
